A study of Sus scrofa with 23 samples.

Results

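This section describes 4 genes whose products make, carry or use heme: ALAS1 (ENSSSCG00000011437), CYB5B (ENSSSCG00000002756), CYP2U1 (ENSSSCG00000009151) and CYGB (ENSSSCG00000017181). They are 4 of the 25322 genes counted in the subcutaneous backfat of 23 crossbred pigs. The members were chosen on values measured in these same pigs: the study listed all 4 as differentially expressed genes (DEGs) between group II and group I, and listed ALAS1, CYP2U1 and CYGB again when groups II, III and IV were combined against group I. Differences from group I are therefore given below as descriptions and no test is read from them. The difference between groups III and IV, the difference between the sexes and the relations between members among pigs of the same diet were tested. None of these was a contrast that chose the members. The spread within the groups compared did enter the study's adjusted p, so the choice could favour members with small differences within those groups.

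Heme is an iron-containing ring built in steps that begin and end in the mitochondrion, and proteins use it to carry electrons or to bind oxygen. ALAS1, delta-aminolevulinate synthase, catalyses the first and rate-limiting step of heme synthesis in cells other than erythroid cells. CYB5B is the cytochrome b5 of the outer mitochondrial membrane, a heme protein that passes electrons to other enzymes. CYP2U1 is a cytochrome P450 that hydroxylates long-chain fatty acids such as arachidonic acid, and CYGB is cytoglobin, a globin found in fibroblast-like cells of many tissues that binds oxygen and nitric oxide.

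Group I (-cDDGS+rapeseed oil, n = 7) was fed without corn dried distillers grains with solubles (cDDGS), a by-product of ethanol production, and with rapeseed oil as the fat. Group II (+cDDGS+rapeseed oil, n = 6), group III (+cDDGS+beef tallow, n = 5) and group IV (+cDDGS+coconut oil, n = 5) received cDDGS with the fat named. All pigs were offspring of (Polish Landrace × White Large Polish) sows and a Duroc × Pietrain boar, were slaughtered at the end of fattening and gave 1 library each, so that each value below is 1 animal. The groups held 4 females and 3 males, 3 and 3, 2 and 3, and 3 and 2, in the order I to IV, the males being castrated. Since group I had no cDDGS and groups III and IV had another fat as well, a difference between group III or IV and group I cannot be told apart into cDDGS and fat.

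The shallowest library held 2437172 counts in genes, the median one 4717511 and the deepest 7979426. The share of uniquely mapped reads that fell outside genes averaged 56.8% ± 2.53 (SD) for group I, 62.5% ± 5.81 for II, 56.8% ± 4.0 for III and 63.0% ± 5.05 for IV. The adipocyte marker PLIN1, which coats lipid droplets, averaged 1184 CPM (counts scaled to library size after TMM normalisation, the unit of all levels below) and was detected in all 23 pigs. CPM is not divided by gene length, so levels are compared between pigs and never between genes. Raw counts ranged from 26 to 180 for ALAS1, from 21 to 161 for CYP2U1, from 56 to 304 for CYB5B and from 50 to 236 for CYGB.

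ALAS1 was lower in the groups fed cDDGS than in group I, and lowest in group II. In group I its level was 16.8 CPM in the lowest pig, 22.6 CPM at the median and 33.9 CPM in the highest, with a mean of 24.9 ± 6.73 (SD, n = 7). In group II it ran from 11.3 to 18.5 CPM around a median of 15.7 CPM, with a mean of 15.2 ± 3.10 (n = 6). All 6 pigs of group II lay below the group I median and 4 of them below its lowest pig. In group III the 5 pigs had 11.6, 16.0, 16.4, 21.7 and 23.0 CPM, a mean of 17.7 ± 4.64. In group IV they had 14.6, 16.7, 17.2, 18.5 and 23.7 CPM, a mean of 18.1 ± 3.41. The order of the means was I, IV, III and II, and groups II, III and IV overlapped one another, with differences smaller than their SDs. On the log2 scale ALAS1 differed from group I by -0.71 ± 0.19 (SE of the edgeR fit) with rapeseed oil and cDDGS (group II), by -0.50 ± 0.21 with tallow (III), by -0.46 ± 0.19 with coconut oil (IV) and by -0.56 ± 0.15 over the 3 groups combined. The study also measured ALAS1 by qPCR in these diet groups and reported diet, but not sex, as a significant factor for it.

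CYP2U1 had the same order at both ends and a more even difference across the 3 diets with cDDGS. Group I ran from 15.0 to 30.4 CPM around a median of 23.4 CPM and a mean of 24.2 ± 5.73. Group II ran from 9.12 to 19.9 CPM around a median of 14.4 CPM and a mean of 14.5 ± 3.63. The 5 pigs of group III had 10.8, 11.6, 16.9, 17.6 and 21.1 CPM (mean 15.6 ± 4.35). The 5 pigs of group IV had 11.9, 14.1, 14.3, 17.5 and 17.9 CPM (mean 15.1 ± 2.55). All 16 pigs fed cDDGS lay below the group I median, and 9 of the 16 below the lowest pig of group I. The log2 difference from group I was -0.72 ± 0.19 for group II, -0.63 ± 0.20 for III, -0.67 ± 0.18 for IV and -0.68 ± 0.14 for the 3 together.

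CYB5B was lower in group II, below every pig of group I, while groups III and IV overlapped group I in part. Group I ran from 31.2 to 56.2 CPM around a median of 39.2 CPM (mean 42.3 ± 9.04), and group II from 18.9 to 28.4 CPM around a median of 26.7 CPM (mean 25.5 ± 3.54). These 2 groups did not overlap, which is part of what chose the gene. How many of all genes separate in this way was not counted, for CYB5B or for the pigs outside group I given for the other members. The pigs of group III had 24.3, 29.8, 31.2, 40.5 and 71.4 CPM (mean 39.5 ± 18.8), the widest spread of the 4 groups, with the highest level of all 23 pigs in pig 48. Of these 5 pigs 3 lay below the lowest pig of group I, 1 of them, pig 46, only just (31.20 CPM against 31.23 CPM). The pigs of group IV had 23.5, 32.6, 41.4, 42.2 and 50.8 CPM (mean 38.1 ± 10.4). The log2 difference from group I was -0.73 ± 0.15 for group II, -0.10 ± 0.23 for III and -0.15 ± 0.18 for IV, and -0.32 ± 0.19 for the 3 together. The value for group III turned on pig 48: without it the difference was -0.43 ± 0.18, and with all 5 pigs it was -0.30 with limma-voom, -0.23 with sex as covariate and -0.22 with RNA integrity number as covariate. Against group II, CYB5B was higher by 0.63 ± 0.23 in group III and by 0.57 ± 0.18 in group IV, whereas for the other members these 2 differences lay between 0.02 and 0.24. Without pig 48 the difference between groups III and II was 0.30 ± 0.17. Since the low level in group II chose CYB5B, this contrast with groups III and IV is a description as well.

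CYGB was higher in every group fed cDDGS. Group I ran from 16.0 to 24.1 CPM around a median of 21.3 CPM and a mean of 20.8 ± 3.27, the tightest group I of the 4 genes relative to its mean. Group II ran from 22.6 to 38.7 CPM around a median of 31.5 CPM (mean 30.3 ± 5.95). The pigs of group III had 20.4, 29.3, 29.8, 34.1 and 39.5 CPM (mean 30.6 ± 7.01), and those of group IV had 23.3, 24.7, 35.8, 35.9 and 40.4 CPM (mean 32.0 ± 7.56). Of the 16 pigs fed cDDGS, 13 exceeded the highest pig of group I. Group I was exceeded on the log2 scale by 0.54 ± 0.15 in group II, 0.56 ± 0.16 in III, 0.61 ± 0.16 in IV and 0.57 ± 0.13 over the 3 together. The means of groups II, III and IV differed by less than their SDs. In bulk tissue, fewer cells of a type and less RNA per cell cannot be told apart.

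**Figure D1:**
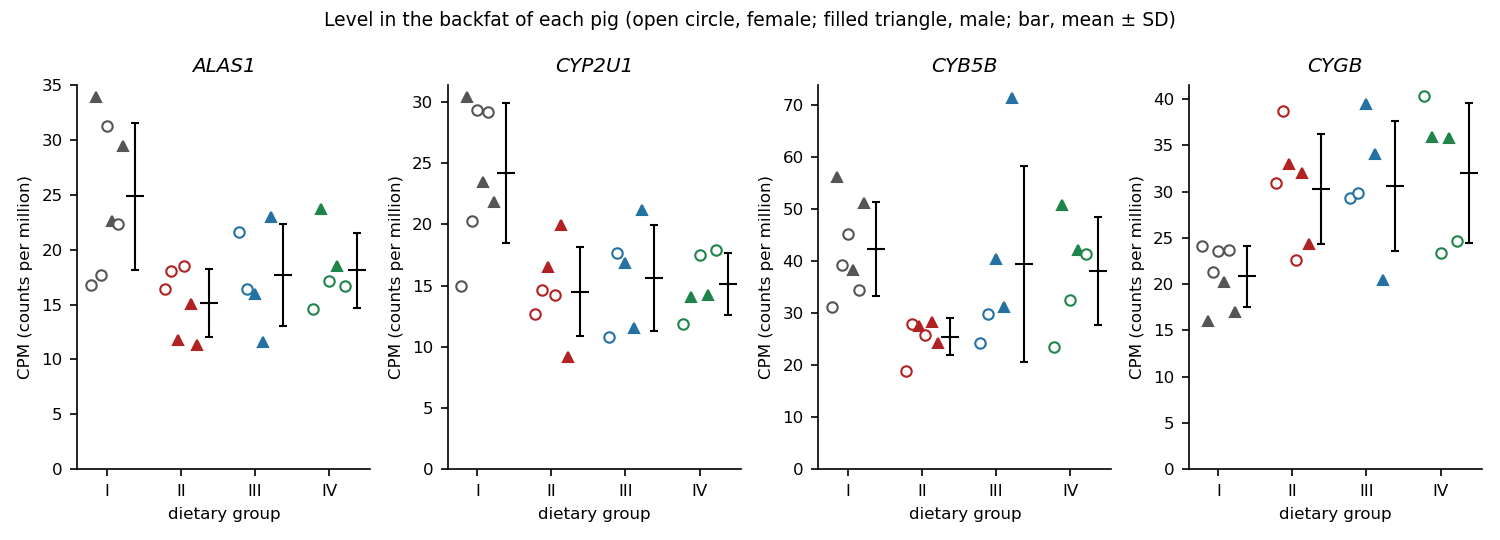
Level of each gene in CPM (vertical axis, from 0) in each pig of dietary groups I to IV (horizontal axis); open circles are females, filled triangles males, and the bar beside each group is the mean ± SD. The 6 pigs of group II lie below all 7 pigs of group I for CYB5B, and 13 of the 16 pigs fed cDDGS lie above all of group I for CYGB. The share of all genes with such separation was not counted.

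The members were selected at an adjusted p under 0.05 and a fold change above 1.3. Refitted with DESeq2, the tool of the study's methods, CYGB (adjusted p = 0.0493) and ALAS1 (0.0491) stood just inside the limit in group II vs group I, CYP2U1 had 0.0432 and CYB5B 0.00736. In the combined comparison CYB5B stood outside it (DESeq2 adjusted p = 0.410). By edgeR's quasi-likelihood test on all pigs without covariates no member was among the genes called at the same limits. Other fits did call members. These comparisons chose the members or share pigs with those that did, so a pass in them is not evidence of a difference. In group II vs group I, CYB5B passed in edgeR with sex as covariate (adjusted p = 0.0486) and without pig 1 (0.0327). In the combined comparison limma-voom passed ALAS1 (adjusted p = 0.0426), CYP2U1 (0.0260) and CYGB (0.0313), and edgeR without pig 1 passed ALAS1 (0.0492), CYP2U1 (0.0185) and CYGB (0.0492). Without pig 21, 48 or 53 edgeR passed CYP2U1 and CYGB there, and without pig 3 it passed CYP2U1 (0.0499). In group IV vs group I DESeq2 passed CYP2U1 (adjusted p = 0.0491) and CYGB (0.0423), and edgeR without pig 53 passed CYGB (0.0395). That test called 3 of 10323 genes (0.0291%) in group II vs group I, against 96 by DESeq2 and 5 by limma-voom with sample quality weights. It called 0 of 10423 (0%) in group III vs group I, 0 of 10388 (0%) in group IV vs group I and 0 of 10749 (0%) in the combined comparison, with 825, 1440 and 1671 genes at an unadjusted p under 0.05. DESeq2 called 13, 154 and 163 genes there, and limma-voom 0, 0 and 65.

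**Figure D2:**
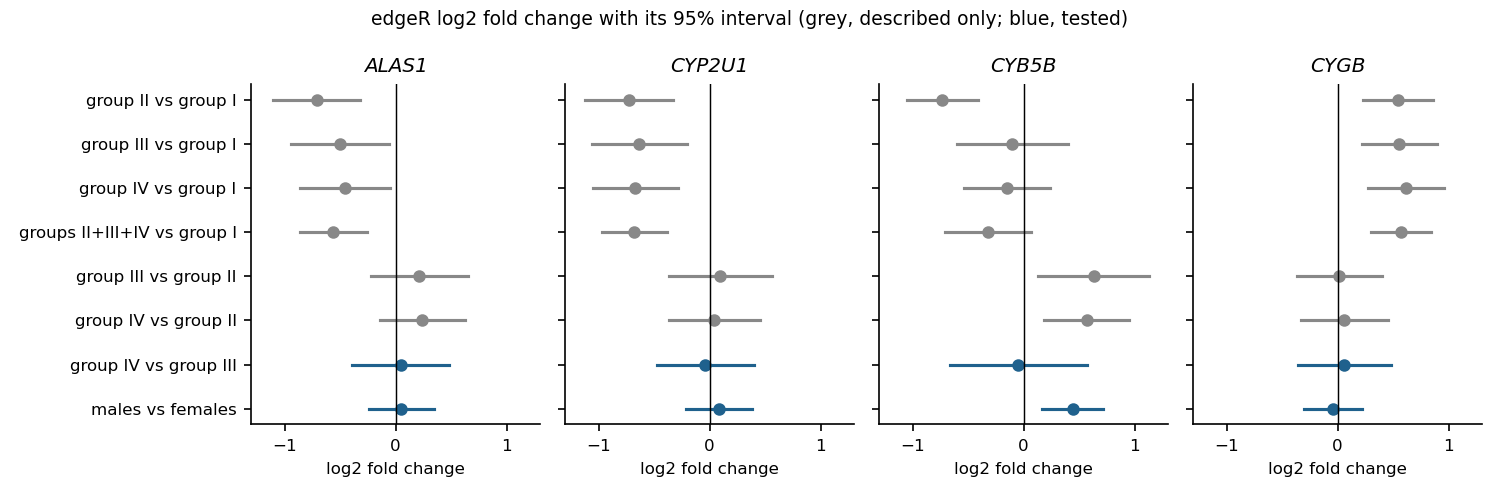
The edgeR log2 fold change (horizontal axis) of each gene in 8 comparisons (vertical axis), as a point with its 95% interval. Group II vs group I and the combined comparison took part in choosing the genes. The other grey comparisons set group III or IV against group I or II. Grey comparisons are described only, and blue ones were tested. The CYB5B points for groups III and IV vs group II (0.63 and 0.57) and for males vs females (0.44) lie above 0, while the other members lie between 0.02 and 0.24 vs group II.

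Beef tallow and coconut oil, compared on a background of cDDGS, left no detectable difference in any member. From group III to group IV the log2 difference was 0.05 ± 0.20 for ALAS1, with a 95% interval from -0.39 to 0.48. It was -0.04 ± 0.21 for CYP2U1 (-0.48 to 0.40), -0.05 ± 0.29 for CYB5B (-0.67 to 0.57) and 0.06 ± 0.20 for CYGB (-0.36 to 0.48). The edgeR adjusted p was 0.998 for each, and exact two-sided permutation tests over the 252 ways to split the 10 pigs gave p = 0.762, 0.984, 0.960 and 0.770 for ALAS1, CYP2U1, CYB5B and CYGB, where the smallest p possible is 0.00794. The intervals are wide, so a difference within them was not detectable with 5 pigs a group. ALAS1, CYP2U1 and CYGB were also chosen with groups III and IV pooled, which could favour a small difference between these groups. Over all genes edgeR called 0 of 10230 (0%), with 409 at an unadjusted p under 0.05, and DESeq2 and limma-voom called 0 each.

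CYB5B was higher in males than in females. Its level in the 12 females ran from 18.9 to 45.2 CPM around a median of 30.5 CPM (mean 31.2 ± 7.84), and in the 11 males from 24.3 to 71.4 CPM around a median of 40.5 CPM (mean 42.0 ± 14.4). The ranges overlapped, but the male mean was higher within each of the 4 diets. In group I females averaged 37.5 CPM and males 48.6 CPM, and in group II 24.2 CPM and 26.8 CPM. In group III they averaged 27.1 CPM and 47.7 CPM, and in group IV 32.5 CPM and 46.5 CPM. With diet as a covariate the log2 difference, males less females, was 0.44 ± 0.13 (95% interval 0.17 to 0.71). An exact two-sided permutation test over all 70000 exchanges of sex within diets gave p = 0.00464, unadjusted and 1 of 4 such tests. Adjusted over all 10276 genes the difference did not pass in edgeR (adjusted p = 0.103) and passed in DESeq2 (adjusted p = 0.0478) but not in limma-voom (0.130), and edgeR called 91 genes (0.886%), DESeq2 258 and limma-voom 83. Without pig 48, the male with the highest level, the difference was 0.35. Markers of other cell types also differed between the sexes. Both skeletal muscle markers tested were higher in males at an unadjusted p under 0.05, ACTA1 by 2.57 ± 1.08 and MYL1 by 2.26 ± 1.04 on the log2 scale (edgeR adjusted p = 0.228 and 0.266), and their sum ran from 0.885 to 1019 CPM in females and from 13.4 to 1948 CPM in males. All 7 fibroblast markers were lower in males, with a median of -0.57 and 1 called, COL1A2 (-0.82 ± 0.18, edgeR adjusted p = 0.0263), and their sum ran from 7551 to 16105 CPM in females and from 4896 to 12567 CPM in males. All 5 macrophage markers tested were lower in males, with a median of -0.48 and none called. The markers named here were picked after their values were seen. Their part in the difference was not tested.

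For the other members no difference between the sexes was detected. Males less females, the log2 difference was 0.05 ± 0.14 for ALAS1 (95% interval -0.24 to 0.35), 0.08 ± 0.14 for CYP2U1 (-0.21 to 0.38) and -0.04 ± 0.13 for CYGB (-0.30 to 0.22). Their exact permutation p-values were 0.839, 0.613 and 0.720. For all 3 the direction varied with the diet, CYP2U1 being higher in males of groups I to III and lower in those of group IV (15.8 CPM in females and 14.2 CPM in males). In group I, ALAS1 averaged 22.0 CPM in females and 28.7 CPM in males, while in group II it averaged 17.7 CPM and 12.7 CPM, and the 3 males of group II were the 3 lowest of that group. CYGB averaged 23.2 CPM in the 4 females and 17.7 CPM in the 3 males of group I, without overlap, and in group II 30.8 CPM and 29.8 CPM. How many of all genes separate so few females and males within a diet was not counted, for CYGB or for ALAS1. The interaction of sex and cDDGS, the difference between the sexes in the change with cDDGS, was -0.48 ± 0.29 for ALAS1 (unadjusted p = 0.114) and 0.49 ± 0.26 for CYGB (unadjusted p = 0.0657) in edgeR's test. It was 0.12 ± 0.34 for CYB5B and -0.04 ± 0.30 for CYP2U1. The edgeR adjusted p was 1.00 for all 4, and 0 of 11466 genes were called (0%), with 392 at an unadjusted p under 0.05, against 3 by DESeq2 and 0 by limma-voom.

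Once the mean of each diet was removed, ALAS1, CYB5B and CYP2U1 tended to be high in the same pigs. The 6 pairs were compared on log2(CPM + 0.5) less the group mean over 23 pigs, with 100000 permutations of pigs within groups and Benjamini-Hochberg adjustment over the pairs. For CYB5B and CYP2U1, Pearson's r was 0.57 (permutation p = 0.00654, adjusted 0.0392) and Spearman's rho 0.51 (permutation p = 0.0184, adjusted 0.0764), so that the relation passed by r and not by rho. For ALAS1 and CYB5B, r was 0.51 (permutation p = 0.0231, adjusted 0.0692) and rho 0.50 (permutation p = 0.0255, adjusted 0.0764). For ALAS1 and CYP2U1, r was 0.46 (permutation p = 0.050, adjusted 0.100) and rho 0.43 (permutation p = 0.0706, adjusted 0.141). Only the first of these passed the adjustment, and only by r.

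Without the 2 pigs farthest from the median of the first gene named, r was 0.47 for CYB5B and CYP2U1 (permutation p = 0.0402, adjusted 0.121), 0.46 for ALAS1 and CYB5B (permutation p = 0.0280, adjusted 0.121) and 0.36 for ALAS1 and CYP2U1 (permutation p = 0.139, adjusted 0.278). The relation of CYB5B with CYP2U1 thus rests in part on those pigs for its side of the threshold. Leaving out any 1 pig kept its r between 0.49 and 0.63, and the adjusted p exceeded 0.05 without pig 1, 2, 3, 5, 22, 45, 48, 49 or 55, reaching 0.143 without pig 48. The pairs with CYGB had negative r: -0.32 with ALAS1 (rho -0.32), -0.38 with CYB5B (rho -0.18) and -0.22 with CYP2U1 (rho -0.23), with permutation p from 0.129 to 0.338 for r, adjusted 0.193 to 0.338, and from 0.156 to 0.475 for rho, adjusted 0.234 to 0.475. Without the 2 farthest pigs these became -0.21, -0.07 and -0.31.

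**Figure D3:**
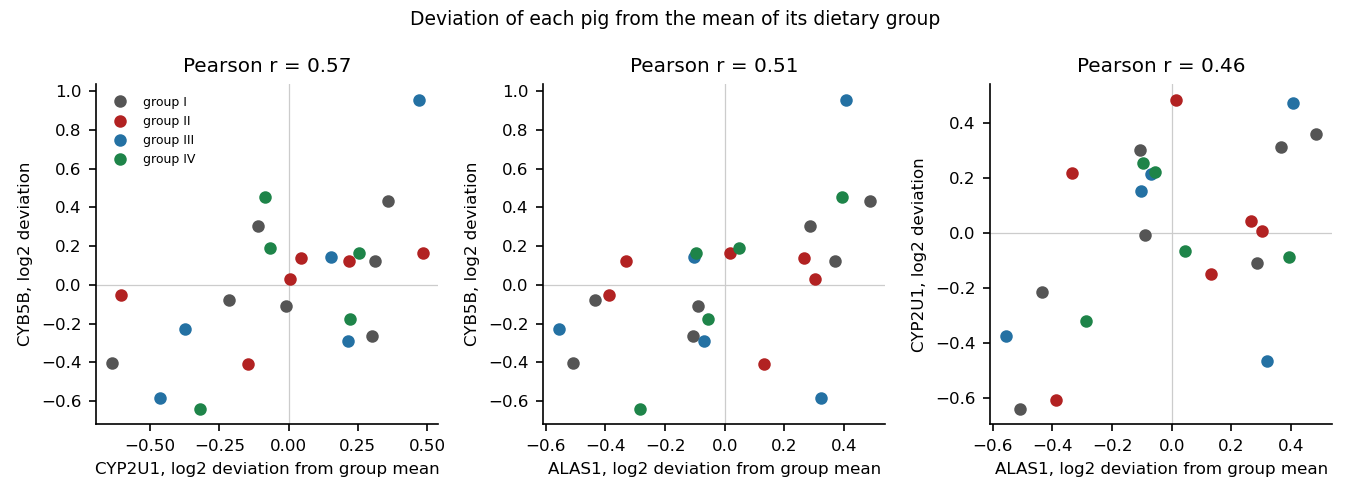
Each point is 1 pig, coloured by dietary group, plotted by its log2 deviation from the mean of its group for one gene (horizontal axis) against another (vertical axis); the title gives Pearson's r over 23 pigs. The point at the top right of the first and second plots is pig 48 of group III, whose CYB5B level was 71.4 CPM.

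Among the 11038 other genes that passed the low-count filter, CYP2U1 ranked 188 in r with CYB5B and ALAS1 ranked 348, so that these relations were not the strongest that either gene had. The 3 genes most like CYB5B across the 23 pigs, by r on the same deviations, were NDUFA9 (r = 0.77), USP5 (0.76) and PSMD14 (0.76), and the least like was GMPPA (-0.81). For ALAS1 they were POLR1C (0.79), CDK16 (0.76) and UCP2 (0.75), with HIP1R (-0.78) at the other end. For CYP2U1 they were TUBB (0.79), a gene with no symbol here (ENSSSCG00000027013, 0.76) and CTPS2 (0.76), with AFAP1L2 (-0.70) last. For CYGB they were 2 genes with no symbol here (ENSSSCG00000030742, 0.74, and ENSSSCG00000003421, 0.72) and LDB1 (0.69), with DCAF13 (-0.74) last. These are the extremes of a ranking over 11038 genes and carry no test.

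The other genes of heme synthesis were then examined, 12 of which had an identifier beside ALAS1 and 11 of which passed the filter. None was called by edgeR, DESeq2 or limma-voom in a comparison with group I. In group II vs group I 9 of the 11 were lower, with a median log2 difference of -0.17 (median of all genes tested 0.00), and 1 was lower at an unadjusted p under 0.05, where 6.31% of all genes were lower and 6.22% higher at that level. That gene was SLC25A39, a mitochondrial carrier that imports glutathione and supports heme synthesis, at 18.1 ± 3.90 CPM in group I (n = 7) and 12.6 ± 4.07 in group II (n = 6), a log2 difference of -0.53 ± 0.20 (edgeR adjusted p = 0.304). FECH, which inserts the iron, differed by -0.17 ± 0.13 in that comparison and by -0.16 ± 0.11 in the combined one. In the combined comparison 8 of the 11 were lower and 0 passed an unadjusted p of 0.05, where 7.03% of all genes were lower and 8.51% higher. ALAS2, the erythroid counterpart of ALAS1, stood at 1.8 ± 1.06 CPM in group I and 2.71 ± 1.51 in the groups with cDDGS combined, a difference of 0.57 ± 0.36 (edgeR adjusted p = 0.457). PPOX was at 0 counts in all 23 pigs under its identifier, which alone does not show that it was not expressed, and ALAD had no matched identifier.

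Mitochondrial heme proteins and the enzymes that prepare their heme were lower in group II in 7 of 7 genes tested, with a median log2 difference of -0.34, 3 of them at an unadjusted p under 0.05 (6.31% of all genes were lower at that level) and none called. COX15, which makes the heme A of cytochrome c oxidase, averaged 9.46 ± 2.44 CPM for group I, 5.79 ± 1.33 for II, 5.66 ± 1.37 for III and 6.73 ± 1.58 for IV. Its combined log2 difference was -0.65 ± 0.16, with an adjusted p of 0.0926 in edgeR, 0.0259 in DESeq2 and 0.0426 in limma-voom. HCCS, which attaches heme to cytochrome c, averaged 12.3 ± 1.12 CPM in group I and 8.38 ± 1.61 in group II, and differed by -0.54 ± 0.16 there (edgeR adjusted p = 0.226). CYCS, cytochrome c itself, differed by -0.60 ± 0.23 for group II (edgeR adjusted p = 0.297), by -0.28 ± 0.32 for III and by -0.06 ± 0.31 for IV. SDHD, a subunit of succinate dehydrogenase that helps hold its heme, differed by -0.34 ± 0.19 in group II and by -0.21 ± 0.15 in the combined comparison. There all 7 genes were again lower, with a median of -0.21, and 2 were at an unadjusted p under 0.05, against 7.03% of all genes. In group III vs group I 5 were lower and 2 higher (median -0.19). In group IV vs group I 6 were lower and 1 higher (median -0.15). All of these comparisons use the pigs of group I, so these counts are not independent of each other.

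In the cytochrome b5 system no gene was called. CYB5A, the cytochrome b5 of the endoplasmic reticulum, averaged 242 ± 40.7 CPM in group I and 199 ± 54.2 in group II, a log2 difference of -0.29 ± 0.17 (edgeR adjusted p = 0.488), and differed by -0.28 ± 0.15 in the combined comparison (0.365). The cytochrome b5 reductase CYB5R1 differed by -0.37 ± 0.14 in the combined comparison (adjusted p = 0.209) and CYB5D2, a heme-binding protein of the same domain family, by -0.35 ± 0.14 (adjusted p = 0.227). CYB5R3, the main reductase of cytochrome b5, differed by 0.02 ± 0.11. Of the 7 genes tested 4 were lower and 3 higher, with a median of -0.04.

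Among the regulators of ALAS1, ESRRA, an orphan nuclear receptor of mitochondrial genes, differed by -0.41 ± 0.18 in group II (edgeR adjusted p = 0.355) and by -0.27 ± 0.15 in the combined comparison. FOXO1, a transcription factor held back by insulin signalling, differed by -0.20 ± 0.11 in the combined comparison and NRF1, an activator of nuclear genes for mitochondria, by 0.21 ± 0.15. PPARGC1A, a known inducer of ALAS1, was at 0 counts in all 23 pigs under its identifier, as PPOX was. Such zeros alone do not show that a gene was not expressed in backfat. Of the 5 tested none was called.

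Heme breakdown and transport held 8 tested genes with a median of 0.01 in group II vs group I and 0.04 in the combined comparison, and none was called. HMOX2, the constitutive heme oxygenase, differed by 0.19 ± 0.12 in the combined comparison, BACH1, a heme-sensing repressor, by -0.18 ± 0.12 and BLVRB, a biliverdin reductase, by 0.37 ± 0.30. PGRMC1, a heme-binding membrane protein, differed by -0.31 ± 0.15 in group II (edgeR adjusted p = 0.398). HMOX1 had no matched identifier.

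Cytochrome P450 genes other than CYP2U1 were mostly at low counts, since 25 had an identifier and 8 passed the filter in the combined comparison. Among these 5 were higher and 3 lower, with a median log2 difference of 0.12 and none called. CYP2B6, an enzyme of drug and steroid oxidation, averaged 27.8 ± 16.3 CPM in group I and 49.8 ± 24.5 with cDDGS, a difference of 0.84 ± 0.37 (edgeR adjusted p = 0.280). CYP2E1, which oxidises ethanol and other small molecules, differed by 1.90 ± 0.94 with an SD above its mean in group II (14.5 ± 27.7 CPM). CYP4B1, another fatty acid hydroxylase, differed by -0.23 ± 0.17, and POR, the reductase of these enzymes, had no matched identifier. Of the other globins, HBB of red blood cells averaged 17.1 ± 7.77 CPM in group I and 22.0 ± 8.04 with cDDGS, a difference of 0.37 ± 0.23, and ADGB, androglobin, differed by -0.09 ± 0.19. Both were far from the called limit (edgeR adjusted p = 0.459 and 0.879).

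**Figure D4:**
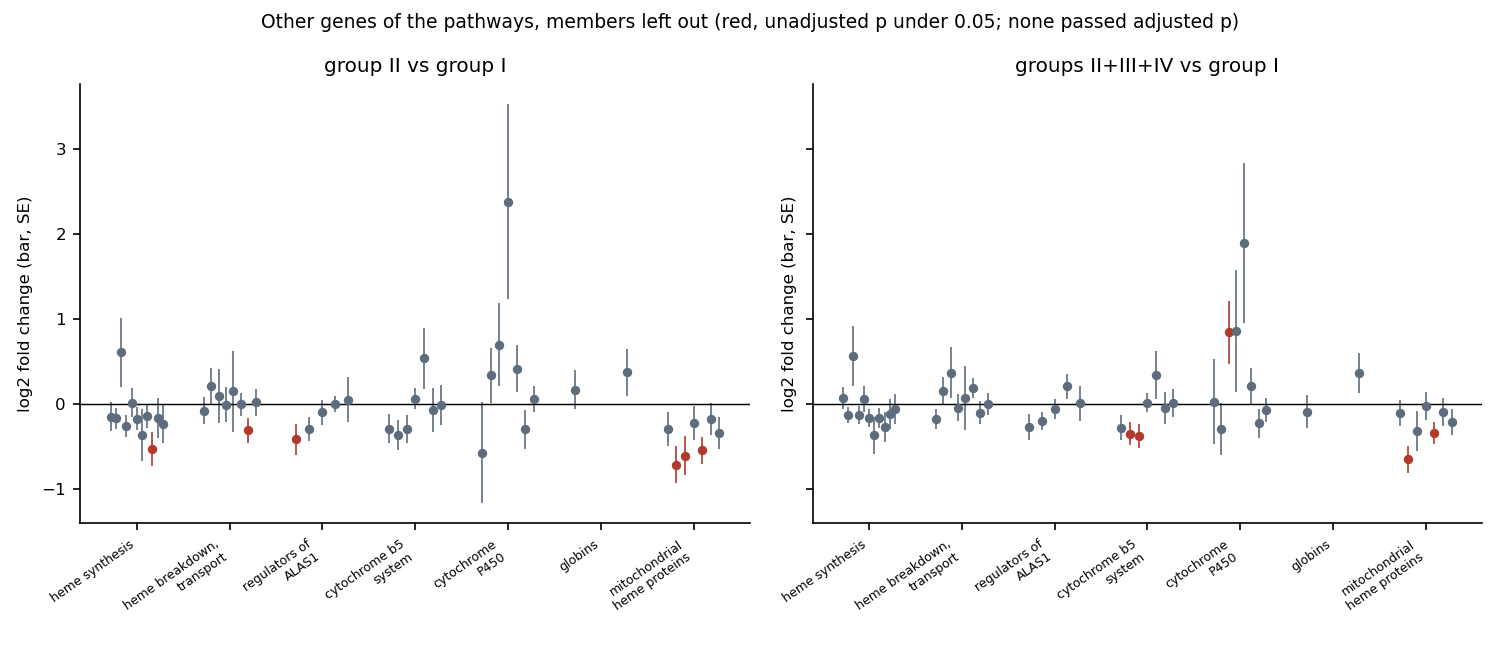
The edgeR log2 fold change of each tested gene (point, with its SE as a bar) in 7 gene lists, for group II vs group I (left) and the 3 groups with cDDGS combined vs group I (right); the 4 members are left out, and red marks an unadjusted p under 0.05. All 7 mitochondrial heme protein genes lie below 0 in both plots, and none of the points passed the adjusted limit in edgeR.

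Between the sexes the mitochondrial heme proteins were higher in males in 7 of 7 genes, with a median log2 difference of 0.29 and 3 at an unadjusted p under 0.05, where 8.54% of all genes were higher in males and 8.98% lower at that level. None of the 7 was called, and the skeletal muscle and fibroblast markers given above differed between the same pigs. COX15 differed by 0.14 ± 0.16 and HCCS by 0.06 ± 0.12, while SDHD differed by 0.31 ± 0.13 (edgeR adjusted p = 0.219). HMOX2 was 0.29 ± 0.09 higher in males (edgeR adjusted p = 0.105) and HBB 0.62 ± 0.18 (0.102). The 1 gene of the 7 lists that was called was CYP2R1, a vitamin D hydroxylase, lower in males by -0.62 ± 0.15 (edgeR adjusted p = 0.0495). It is named because it was the called gene and was picked after its values were seen. It also passed with DESeq2 (adjusted p = 0.0159) and with median-ratio normalisation (0.0495) but under none of the other 5 alternatives, and no list gene was called when any of 16 pigs was left out.

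Summed levels of cell-type markers are given by diet as ranges, and the sums were not tested between diets. No adipocyte or macrophage marker was called by edgeR. The summed level of the 5 adipocyte markers with an identifier (of 9) was 2593 to 3700 CPM for group I, 2138 to 3499 for II, 2397 to 2913 for III and 2442 to 2849 for IV, with 4 of the 5 lower in the combined comparison (median -0.42) and PPARG, the adipocyte transcription factor, higher. The summed level of the 7 macrophage markers (of 9) was 33.9 to 165 CPM for group I, 182 to 360 for II, 77.1 to 234 for III and 88.9 to 227 for IV. How many of all genes separate groups I and II in this way was not counted. All 5 macrophage markers tested were higher in the combined comparison, with a median of 1.12. None was called by edgeR, which called 0 of 10749 genes there. With DESeq2 the study listed VSIG4 as raised in group II and in the combined comparison, and named MRC1 among genes raised by cDDGS. By qPCR it reported diet and sex as significant factors for VSIG4. The fibroblast markers, 7 of 9, ran from 8628 to 15524 CPM for group I, 8585 to 16105 for II, 4896 to 11376 for III and 6731 to 12494 for IV. Of the 7 pericyte and smooth muscle markers MYH11 was at 0 in all 23 pigs under its identifier. The other 6, ACTA2 (53.5 CPM on average) and TAGLN (29.8 CPM) among them, were detected in all. Of the 3 skin markers KRT1 was at 0 in 21 pigs and KRT15 in 20, while KRT10 (2.28 CPM) was detected in all. The part of these cell types in the differences above was not tested.

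Within diets, none of 36 relations between the members and 6 marker sums, depth, RNA integrity number or the share of reads outside genes passed adjustment over the 36, the lowest adjusted permutation p being 0.509 for r and 0.234 for rho. These relations were added after the data were seen. Here the 2 farthest pigs are those farthest from the median of the marker sum, not of the gene. CYGB and the adipocyte sum had r = -0.47 (permutation p = 0.0204) and rho = -0.50 (permutation p = 0.0166), which became r = -0.31 without the 2 farthest pigs. CYB5B and the fibroblast sum had r = -0.49 (permutation p = 0.0471) and rho = -0.61 (permutation p = 0.00650). Without the 2 farthest pigs, 45 and 20, r was -0.52. Pig 48, which had the highest CYB5B level, stayed in. CYP2U1 and the endothelial sum had r = -0.46 (permutation p = 0.0431) and rho = -0.53 (permutation p = 0.0201), and r = -0.55 without the 2 farthest pigs. The sums add CPM, so abundant genes weigh most. These were COL3A1 (7981 CPM on average) and COL1A2 (1905 CPM) in the fibroblast sum and PECAM1 (712 CPM) in the endothelial sum. ALAS1 had r = 0.35 with the adipocyte sum (permutation p = 0.127). With the macrophage sum, r lay between -0.30 for CYB5B and 0.25 for CYGB.

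The share of reads outside genes was higher in groups II and IV than in group I. With it as a covariate, the group II difference was -0.70 for ALAS1, -0.70 for CYP2U1, -0.70 for CYB5B and 0.48 for CYGB, close to the values above. The group IV difference shrank more, to -0.25 ± 0.26 for ALAS1, -0.44 ± 0.23 for CYP2U1, 0.32 ± 0.20 for CYGB and -0.03 ± 0.26 for CYB5B. The combined difference of CYB5B became -0.19 ± 0.19 with the same covariate. This fit for group IV was added after the data were seen.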

How the data were processed

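RNA from subcutaneous backfat, partly degraded before use, was depleted of ribosomal RNA and sequenced as single reads from stranded total RNA libraries. Per the study's methods the authors aligned reads with TopHat and counted them per gene with HTSeq, and the deposited files hold raw counts for 25322 genes and 5 summary entries, which held 62.6 to 76.7% of all entries per pig and were left out. The members and gene lists were chosen with earlier results of these data known. No coordinates are given. Of the identifiers 11804 matched a reference symbol, and CYB5B and CYGB were named from the study's own tables. RefSeq's gene table lists pig ALAS1 as a transcribed pseudogene, and the counts for it are used as deposited. Alternatives for groups III and IV vs group I, for list genes between the sexes for groups III and IV vs group II and for correlations with each pig left out were chosen after seeing the data.

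Counts were filtered with filterByExpr, normalised by TMM and tested with edgeR 4.0.16 (quasi-likelihood, robust, Benjamini-Hochberg over all genes tested, R 4.3.3) on the pigs compared, and diet was a covariate for sex. DESeq2 1.42.0 and limma 3.58.1 were alternatives, with other filters, normalisations and covariates (sex, RNA integrity number, share of reads outside genes) and with each pig left out. A gene was called at an adjusted p under 0.05 and a fold change above 1.3. Permutation tests used log2(CPM + 0.5). Named list genes were a fixed set (ALAD, FECH, HMOX1, HMOX2, PGRMC1, POR, CYB5A, CYB5R3) and the 3 of each list with the smallest p in the combined comparison, less an item that is not reported here, with others named where they were the genes counted. For likeness, the 3 highest r and the lowest were named. The scripts were tested on simulated data. Libraries were taken as separate animals, since no 2 of the 56 pairs within groups agreed within sampling noise (smallest chi-square per degree of freedom 7.02). Depth limits the precision of genes with few counts, and replicate spread covers counting error.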

Additional observations from a re-analysis of the deposited data

How the results depend on the processing

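Group II vs group I and the combined differences of the 4 members kept their direction under every alternative run. Leaving out 1 pig moved them from -0.79 to -0.61 (ALAS1), -0.84 to -0.63 (CYP2U1), -0.79 to -0.64 (CYB5B) and 0.46 to 0.62 (CYGB), and in the combined comparison from -0.64 to -0.47, -0.77 to -0.61, -0.43 to -0.24 and 0.51 to 0.61. With 1 pig left out, chosen after seeing the data, CYB5B ran from -0.43 to 0.025 in group III and from -0.27 to -0.020 in group IV vs group I, and from 0.30 to 0.75 and 0.44 to 0.70 vs group II, while CYP2U1 and CYGB, near 0 vs group II, ran from -0.038 to 0.21 and -0.094 to 0.12 in group III and from -0.050 to 0.16 and -0.033 to 0.17 in group IV. The group IV vs group III differences, all near 0, changed sign: CYB5B was 0.074 with limma-voom, 0.11 with sex, 0.063 with RNA integrity number and 0.30 with the share outside genes as covariate, CYP2U1 0.080, 0.060 and 0.18 with limma-voom, RNA integrity number and the share, and CYGB -0.17 with the share. Leaving out 1 pig gave -0.082 to 0.16 (ALAS1), -0.18 to 0.27 (CYB5B), -0.14 to 0.090 (CYP2U1) and -0.055 to 0.16 (CYGB). Between the sexes that range, in the order ALAS1, CYB5B, CYP2U1 and CYGB, was -0.012 to 0.10, 0.35 to 0.49, 0.031 to 0.13 and -0.083 to 0.0093, and CYB5B passed with DESeq2 (0.45). For the interaction it was -0.70 to -0.34, -0.067 to 0.23, -0.17 to 0.13 and 0.42 to 0.58, and CYB5B was -0.042 with limma-voom. The cause was not tested.

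The correlation of ALAS1 and CYB5B passed by r and by rho when the share outside genes (r = 0.52), RNA integrity number (0.59) or sex (0.60) was removed. That of ALAS1 and CYP2U1 passed with RNA integrity number removed by r (0.54) but not by rho (adjusted permutation p = 0.0582). Leaving out 1 pig, chosen after seeing the data, gave 0.43 to 0.67 and 0.35 to 0.60, and 0.49 to 0.63 for CYB5B and CYP2U1. In the combined comparison DESeq2 and limma-voom called 1 list gene each, COX15, against 0, and leaving out 1 pig gave 0 to 1, the 1 without pig 3. Between the sexes the 1 called list gene became 2 with DESeq2 and 0 with limma-voom, without a filter, with at least 10 counts in every pig, and with RNA integrity number or the share outside genes as covariate, and 0 to 2 with 1 pig left out. Over all genes edgeR, DESeq2 and limma-voom called 91, 258 and 83 between the sexes, and 3, 96 and 5 in group II vs group I. Without pig 1 edgeR called 32 there and 46 in the combined comparison, and with 1 pig left out 35 to 181 between the sexes. No paired analysis was possible because the labels number each pig singly and no number recurs between diets. Genes with few counts were limited by depth.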
